A study of Mus musculus with 22 samples.

Results

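The thioredoxin and peroxiredoxin genes are a set of 9 genes chosen by name, not by a threshold on their values: Txn1, Txnrd1, Txnrd2, Srxn1, Prdx1, Prdx2, Prdx5, Prdx6 and Txnip, out of 56748 gene IDs measured. All 9 passed the filter on low counts, as did 19202 genes in all. They were followed in RNA-seq libraries of 22 primary tumours of the mouse cheek lining, labelled squamous carcinoma. Every tumour, controls included, came from a mouse with the genotype Krt5CreER-T2/+, that is, Cre recombinase driven by the promoter of Krt5, a keratin of basal keratinocytes, and switched on by tamoxifen. All were also Trp53fl/fl and carried Rosa26LSL-PIK3CA(H1047R) on both alleles, so that every group shared floxed Trp53 and an activated PIK3CA transgene. The Keap1-wildtype groups carried no further allele and the Keap1-deleted groups were in addition Keap1fl/fl. Tumours were started by an injection of 4-hydroxytamoxifen into the cheek, either alone (treatment None, here untreated) or with BAP, that is benzo[a]pyrene, which is among the carcinogens in tobacco smoke. The Keap1-wildtype genotype had 6 untreated and 6 BAP tumours, and the Keap1-deleted genotype 5 of each. By this design Cre deletes in cells that express Krt5 and the deletion passes to their descendants; which cells of a tumour kept Keap1 was not tested. The sources used here do not state the animals' age or whether each tumour came from a separate animal, so p values measure the spread between these tumours, which may be technical in part.

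The thioredoxin system passes electrons from NADPH to proteins. Thioredoxin reductases (Txnrd1 in the cytosol, Txnrd2 in mitochondria) reduce thioredoxin, and thioredoxin (Txn1) reduces oxidised proteins, among them the peroxiredoxins, which break down hydrogen peroxide and are oxidised in doing so. Sulfiredoxin (Srxn1) restores peroxiredoxins that have been overoxidised and stalled, and Txnip, an arrestin-like protein, binds reduced thioredoxin and holds back its activity. Several genes of this system are textbook targets of NRF2, the transcription factor that KEAP1 marks for degradation and that binds antioxidant response elements, and the KEAP1 and NRF2 genes are recurrently altered in squamous carcinomas of the head and neck.

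The genes can be sorted by whether their promoters hold the letters of the antioxidant response element. Promoter sequences from RefSeq (GRCm38.p6), each holding 250 bases before and 50 bases after a start site, were matched for 8 of the 9 genes, with 10 promoters in all. No promoter was available for Prdx6, which was therefore not sorted. Both strands were searched for the core of the element, TGACNNNGC, and for the E-box CACGTG. An added pattern, TGANTCAGC, was chosen after the sequences had been seen. It does not require the C of TGAC, so it is not a stricter form of the core. Only some of its matches also match the core. The core was found in 3 of the 10 promoters, belonging to Txnrd1, Srxn1 and Prdx1, against 12.4% of the 32851 promoters in the table. The added pattern was found in the promoters of Srxn1 and Prdx1, against 1.19% of all promoters, and the E-box in 0 of 10, against 7.15%. A match is a description of the letters and does not show a binding site. The 3 promoters with a match are shown with that of Txnip, which holds neither the core nor the added pattern. Letters run 5′ to 3′ in the direction of the gene, and capitals mark matches to the core or to the added pattern.
Txnrd1, promoter 2 of 3, chr10:82858956-82859255, plus strand: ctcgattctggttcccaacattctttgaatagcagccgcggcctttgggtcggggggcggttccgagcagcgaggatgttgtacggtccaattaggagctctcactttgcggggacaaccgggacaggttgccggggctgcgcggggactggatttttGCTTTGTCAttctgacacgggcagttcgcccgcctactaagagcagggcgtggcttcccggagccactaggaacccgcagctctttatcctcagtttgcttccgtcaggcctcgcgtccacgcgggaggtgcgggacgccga
Srxn1, chr2:152105274-152105573, plus strand: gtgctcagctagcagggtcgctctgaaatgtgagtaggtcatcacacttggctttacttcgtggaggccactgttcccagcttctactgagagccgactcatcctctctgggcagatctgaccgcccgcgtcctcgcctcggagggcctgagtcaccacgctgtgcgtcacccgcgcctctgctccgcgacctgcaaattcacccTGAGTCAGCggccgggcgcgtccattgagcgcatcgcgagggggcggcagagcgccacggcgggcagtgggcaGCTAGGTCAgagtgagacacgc
Prdx1, chr4:116685349-116685648, plus strand: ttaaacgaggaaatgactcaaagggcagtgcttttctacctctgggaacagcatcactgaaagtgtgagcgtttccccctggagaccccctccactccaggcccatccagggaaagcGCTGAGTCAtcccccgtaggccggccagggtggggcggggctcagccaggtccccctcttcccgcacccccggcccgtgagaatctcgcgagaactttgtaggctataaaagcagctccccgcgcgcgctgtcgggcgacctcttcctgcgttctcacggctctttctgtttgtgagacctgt
Txnip, chr3:96557707-96558006, plus strand: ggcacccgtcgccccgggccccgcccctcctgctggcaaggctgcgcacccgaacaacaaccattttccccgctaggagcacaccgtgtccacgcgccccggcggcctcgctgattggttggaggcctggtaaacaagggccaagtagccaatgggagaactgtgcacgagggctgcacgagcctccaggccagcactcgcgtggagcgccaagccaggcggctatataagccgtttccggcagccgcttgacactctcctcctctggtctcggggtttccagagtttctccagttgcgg
The match in Txnrd1 began 92 bases before the start site. In Prdx1 the core and the added pattern fell on the same letters, 133 bases before the start. Srxn1 held the added pattern, without the core, 45 bases before its start and a separate match to the core 29 bases after it.

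Library totals ranged from 29235010 to 39862777 counts. Levels are given as CPM, counts scaled to a common library size after TMM normalisation, which leaves out the genes with the most extreme ratios. Changes are log2 fold changes, each with a standard error (SE), estimated by the quasi-likelihood test of edgeR. A gene was called, and is said to have risen or fallen, at a Benjamini-Hochberg adjusted p under 0.05 over all 19202 genes. In 2 libraries the labels and the transcripts did not sit well together. Keap1-wildtype untreated 6 had basal keratinocyte markers at a summed 1548 CPM, where the median of its group was 28954 CPM. The library labelled Keap1-deleted BAP 2 held Keap1 at 65.6 CPM, inside the wildtype range of 45.8 to 78.9 CPM, while the other 9 Keap1-deleted libraries lay below every wildtype library. Keap1 counts cover the whole gene, exons outside any deleted part included. The fold change of Keap1 was -0.98 (SE 0.32, edgeR adjusted p = 0.137) in untreated tumours, and in BAP tumours it fell by 0.93 (SE 0.32, edgeR adjusted p = 0.0253). The labelled tissue was checked against 12 basal keratinocyte markers, Krt5 and Krt14 among them: none was at 0 throughout any group. Their summed level nevertheless ran from 322 to 1833 CPM in the Keap1-deleted BAP tumours against 27086 to 63357 CPM in the Keap1-wildtype BAP tumours.

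Per kilobase of transcript, Txn1 was the most abundant of the 9 genes, at a mean of 532 CPM per kb over 22 libraries. Prdx1 followed at 317 CPM per kb, Prdx5 at 189 and Prdx2 at 93.8. Srxn1, the repair enzyme, stood at 85.9 and Prdx6 at 64.5 CPM per kb. The inhibitor Txnip stood at 31.8, Txnrd1 at 25.8 and the mitochondrial reductase Txnrd2 at 2.44 CPM per kb. The genes also differed in how far apart the tumours lay. The highest library exceeded the lowest 23.4-fold for Txnip, 17.2-fold for Srxn1 and 14.2-fold for Txnrd1, but 3.44-fold for Prdx2 and 4.46-fold for Txnrd2.

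**Figure D1:**
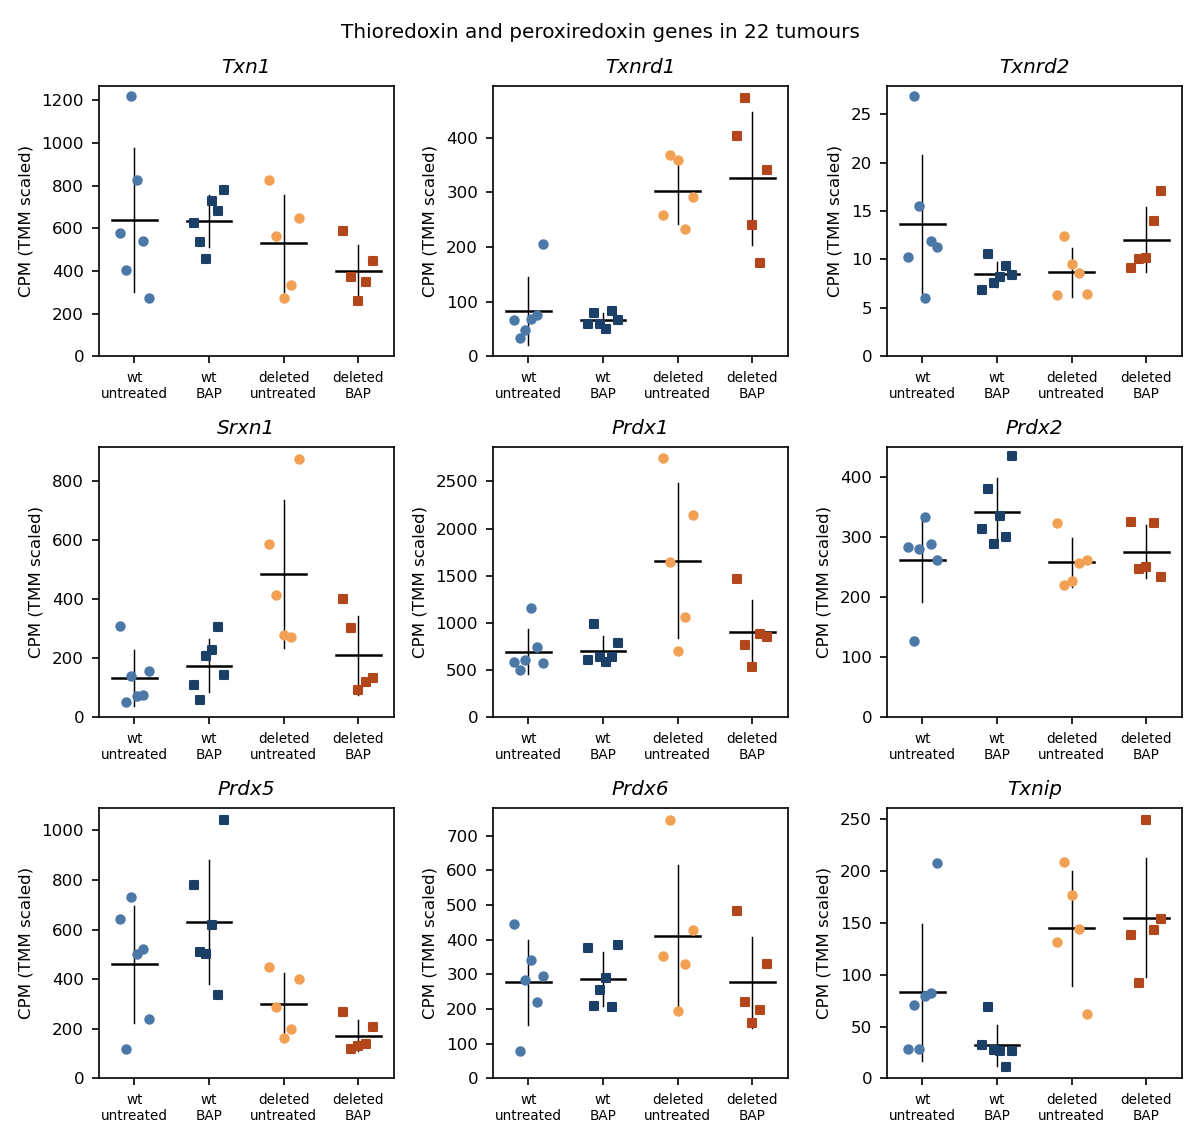
Level of each of the 9 genes in each of the 22 tumours, in CPM scaled by TMM on linear axes that start at 0. Each point is 1 tumour, horizontal bars are group means and vertical lines are 1 SD; wt is Keap1-wildtype and deleted is Keap1-deleted (6, 6, 5 and 5 tumours). Txnrd1 lies higher in both deleted groups, Prdx5 lower and Txnip higher in the deleted BAP group than in the wildtype BAP group, and Prdx2 and Txnrd2 have no such step.

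Txnrd1 was the member that separated the genotypes most completely. Txnrd1 (ENSMUSG00000020250, chromosome 10, 82833951 to 82897712, plus strand on GRCm38) encodes the cytosolic reductase, which supplies cytosolic thioredoxin with electrons. In Keap1-wildtype untreated tumours it ran from 33.3 to 205 CPM with a median of 67.1, and in Keap1-wildtype BAP tumours from 49.6 to 82.2 CPM with a median of 62.9. The 5 Keap1-deleted untreated tumours held 259, 367, 359, 233 and 291 CPM. The 5 Keap1-deleted BAP tumours held 403, 472, 240, 170 and 341 CPM. Within each arm every deleted tumour lay above every wildtype tumour, and the highest wildtype tumour of all, Keap1-wildtype untreated 6, was the single one to reach past 82.2 CPM. The share of all genes whose ranges separated in this way was not counted, here or for the genes below. The library labelled Keap1-deleted BAP 2, with its wildtype level of Keap1, held the highest Txnrd1 level of the 22.

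The fitted increase was 1.87 (SE 0.35, edgeR adjusted p = 0.0238) in untreated tumours and 2.30 (SE 0.35, edgeR adjusted p = 0.00032) in BAP tumours. On the linear scale these are 3.65-fold (95% confidence interval 2.20 to 6.04) and 4.92-fold (2.95 to 8.21). Txnrd1 was the 1 member of 9 called in untreated tumours, where 0.214% of all genes rose and 0.0781% fell. In that arm the call rested on the choice of libraries. Leaving out 1 wildtype tumour (untreated 3 or 4) or 1 deleted tumour (untreated 2 or 5) ended it, at 1.75 to 1.91 with edgeR adjusted p values from 0.0633 to 0.0948. It was also lost with only the 11 libraries of the arm in the fit (1.87, edgeR adjusted p = 0.202), a fit in which 0 of 17515 genes were called. Without Keap1-wildtype untreated 6 the increase was 2.37 (edgeR adjusted p = 0.000197). In BAP tumours the call held whichever library was left out. With both doubtful libraries left out, the increase was 2.37 in untreated and 2.13 in BAP tumours, and both were called. Keap1-wildtype untreated 6 was left out for low keratinocyte markers, while deleted BAP tumours with 322 to 1833 CPM of them were kept. Leaving it out removed the highest wildtype Txnrd1 level, so these fits cannot serve as a check of the untreated increase. Averaged over both arms Txnrd1 rose by 2.08 (SE 0.25, edgeR adjusted p = 0.000076).

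Txnrd1 was also a larger part of all reductase transcripts in deleted tumours. It made up 18.9% to 81.7% of the summed CPM per kb of Txnrd1, Txnrd2 and Txnrd3 in the 12 wildtype tumours, with a median of 34.5%, and 72.2% to 89.3% in the 10 deleted tumours, with a median of 83.2%. The 81.7% belonged to Keap1-wildtype untreated 6, and the next highest wildtype tumour stood at 44.0%. Txnrd2 (ENSMUSG00000075704, chromosome 16, 18426384 to 18479073, plus strand), the mitochondrial reductase, was not called in any of the 6 contrasts. Its means were 13.7 ± 7.16 CPM (SD, n = 6) in wildtype untreated, 8.48 ± 1.29 (SD, n = 6) in wildtype BAP, 8.68 ± 2.53 (SD, n = 5) in deleted untreated and 12.1 ± 3.36 CPM (SD, n = 5) in deleted BAP tumours, and all 4 ranges overlapped. Its fold change with Keap1 deletion was -0.65 (SE 0.30, edgeR adjusted p = 0.262) in untreated and 0.51 (SE 0.30, edgeR adjusted p = 0.181) in BAP tumours.

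Srxn1 and Prdx1, the other genes with the core letters in their promoter, rose when the arms were averaged. Srxn1 (ENSMUSG00000032802, chromosome 2, 152105516 to 152111376, plus strand) encodes sulfiredoxin. It ran from 50.8 to 308 CPM with a median of 107 in wildtype untreated and from 57.2 to 304 CPM with a median of 176 in wildtype BAP tumours. The deleted untreated tumours held 587, 413, 280, 272 and 873 CPM, and the deleted BAP tumours 400, 303, 94.0, 119 and 134 CPM. In untreated tumours 3 of the 5 deleted tumours exceeded all 6 wildtype ones, and in BAP tumours 1 of the 5 did, with overlapping ranges in both arms.
Prdx1 (ENSMUSG00000028691, chromosome 4, 116685544 to 116700822, plus strand), the most abundant peroxiredoxin, ran from 500.4 to 1155 CPM with a median of 599 in wildtype untreated and from 590.4 to 987 CPM with a median of 635 in wildtype BAP tumours. The deleted untreated tumours held 2751, 1648, 702, 1059 and 2140 CPM and the deleted BAP tumours 1465, 768, 531, 883 and 852 CPM. The ranges of Prdx1 overlapped in both arms. For both genes Keap1-deleted untreated 1, 2 and 5 were the 3 highest libraries of that group.

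Averaged over both arms, Srxn1 rose by 1.06 (SE 0.35, edgeR adjusted p = 0.0212), a 2.08-fold difference, and Prdx1 by 0.80 (SE 0.22, edgeR adjusted p = 0.00767), a 1.74-fold difference. In untreated tumours the values were 1.86 (SE 0.50, edgeR adjusted p = 0.0937) for Srxn1 and 1.25 (SE 0.31, edgeR adjusted p = 0.0739) for Prdx1. In BAP tumours they were 0.26 (SE 0.49, edgeR adjusted p = 0.705) and 0.35 (SE 0.31, edgeR adjusted p = 0.392). The difference between the arms was itself tested and not called: -1.60 (SE 0.71, edgeR adjusted p = 0.153) for Srxn1 and -0.90 (SE 0.44, edgeR adjusted p = 0.199) for Prdx1. Without Keap1-wildtype untreated 6 both passed in the untreated arm, at 1.91 (edgeR adjusted p = 0.0252) and 1.204 (edgeR adjusted p = 0.0225). Both passed there by DESeq2 and by limma-voom too. Over all genes 56 were called in that arm by edgeR on all libraries, 944 by DESeq2 and 1870 by limma-voom. With that library and the one labelled Keap1-deleted BAP 2 both left out, edgeR called 2530 there. Prdx1 passed there also without Keap1-deleted untreated 3 (1.45, edgeR adjusted p = 0.0374). Without Keap1-deleted BAP 1 the averaged increase of Srxn1 was 0.88 (edgeR adjusted p = 0.0518). Transcripts of 2 near-identical copies of Prdx1 elsewhere in the genome held 0.553% as many counts as Prdx1.

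**Figure D2:**
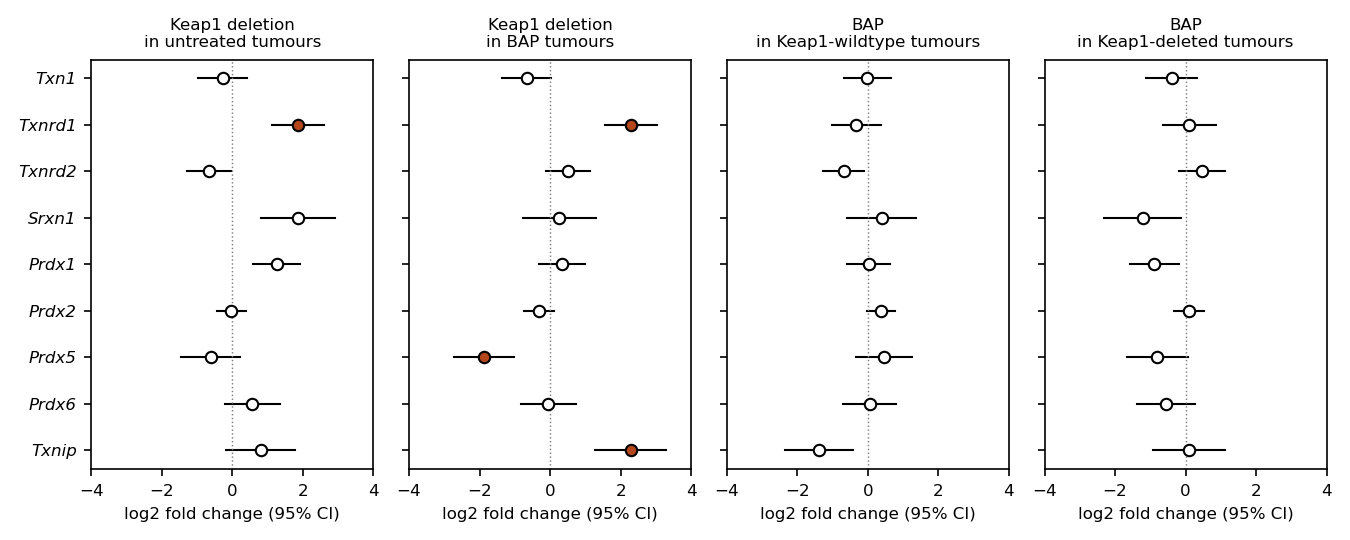
Log2 fold changes of the 9 genes in the 4 pairwise contrasts, with 95% confidence intervals from edgeR; filled points are genes called at an adjusted p under 0.05 over all 19202 genes and open points were not called. Txnrd1 is called in both Keap1 contrasts, Prdx5 and Txnip in the BAP arm, and no gene in the BAP contrasts.

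Txnrd1, Srxn1 and Prdx1 did not order the deleted tumours alike. Nqo1, a quinone reductase and a standard marker of NRF2 activity, ran from 19.4 to 85.8 CPM over the 12 wildtype tumours, and held 462, 390, 143, 185 and 404 CPM in deleted untreated and 403, 177, 19.4, 54.3 and 135 CPM in deleted BAP tumours. Nqo1 rose by 2.67 (SE 0.56, edgeR adjusted p = 0.0457) in untreated and by 1.54 (SE 0.54, edgeR adjusted p = 0.0293) in BAP tumours. Nfe2l2, the gene of NRF2 itself, fell by 1.73 (SE 0.33, edgeR adjusted p = 0.000714) in BAP tumours. Keap1-deleted BAP 3 and 4 did not exceed the highest wildtype level of Nqo1, and they also held the 2 lowest Srxn1 levels of their group and the 2 lowest Txnrd1 levels. Even so, Txnrd1 in these tumours, at 240 and 170 CPM, was above all 6 wildtype BAP tumours. After the mean of each group was removed, the correlation of log2 CPM with Nqo1 over the 22 libraries was 0.61 for Prdx1, 0.55 for Srxn1 and 0.12 for Txnrd1. Without removing group means it was 0.81, 0.76 and 0.62. These are descriptions over libraries that also differ in cell make-up.

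**Figure D3:**
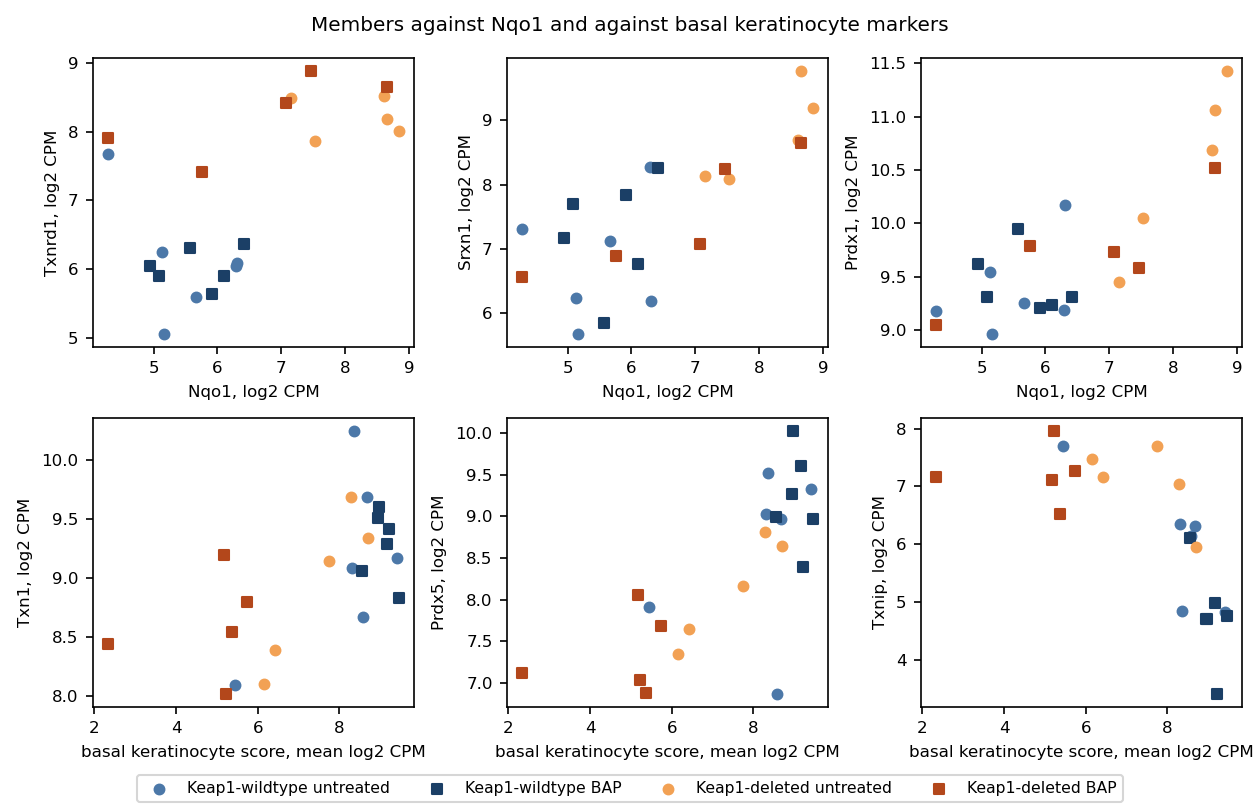
Upper panels show Txnrd1, Srxn1 and Prdx1 against Nqo1, and lower panels Txn1, Prdx5 and Txnip against the mean log2 CPM of 12 basal keratinocyte markers; all axes are log2 CPM and each point is 1 of 22 tumours, coloured by group. Srxn1 and Prdx1 climb with Nqo1, Txnrd1 is above all wildtype tumours in 9 of the 10 deleted ones, with most of the range of Nqo1 held by deleted tumours alone, and Prdx5 is lower and Txnip higher where the keratinocyte markers are low.

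Prdx5 was the member that fell with Keap1 deletion. Prdx5 (ENSMUSG00000024953, chromosome 19, 6906697 to 6910106, minus strand) encodes a peroxiredoxin found in mitochondria, peroxisomes and cytosol. It ran from 337 to 1043 CPM with a median of 563 in wildtype BAP tumours, and the deleted BAP tumours held 267, 118, 131, 139 and 206 CPM. Every deleted BAP tumour lay below every wildtype BAP tumour, in an arm where 20.0% of all genes fell. In untreated tumours it ran from 117 to 733 CPM with a median of 511 in wildtype, and the deleted tumours held 448, 288, 162, 200 and 400 CPM. Those ranges overlapped, with wildtype untreated 2 at 117 and wildtype untreated 6 at 241 CPM.

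In BAP tumours Prdx5 fell by 1.88 on the log2 scale (SE 0.41, edgeR adjusted p = 0.00168), which is 3.67-fold lower (95% confidence interval 2.02 to 6.66). In untreated tumours its fold change was -0.62 (SE 0.40, edgeR adjusted p = 0.417), and averaged over both arms it fell by 1.25 (SE 0.29, edgeR adjusted p = 0.00252). The calls in BAP tumours and over both arms held whichever library was left out, and with both doubtful libraries out Prdx5 fell by 1.77 in BAP tumours. Prdx5 shares 409 of 2139 exon bases with Trmt112 on the opposite strand (the strandedness of the libraries is not known), whose counts came to 12.57% of those of Prdx5.

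Txnip moved the other way. Txnip (ENSMUSG00000038393, chromosome 3, 96557957 to 96561883, plus strand), the inhibitor of thioredoxin and also a regulator of glucose uptake, ran from 10.6 to 68.9 CPM with a median of 26.5 in wildtype BAP tumours. The deleted BAP tumours held 138, 92.0, 249, 143 and 153.7 CPM. Each lay above every wildtype BAP tumour, in an arm where 20.3% of all genes rose. In untreated tumours Txnip ran from 28.2 to 208 CPM with a median of 75.1 in wildtype, and the deleted tumours held 131, 209, 177, 144 and 62.1 CPM. The wildtype untreated value of 208 CPM came from library 6, while the other 5 stood at 82.0 CPM or less and 4 of the 5 deleted tumours at 131 CPM or more.

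Txnip rose by 2.29 in BAP tumours (SE 0.48, edgeR adjusted p = 0.00129), a 4.89-fold difference (95% confidence interval 2.44 to 9.81), by 2.43 there with both doubtful libraries out, and by 1.55 (SE 0.34, edgeR adjusted p = 0.00182) averaged over both arms. In untreated tumours its fold change was 0.80 (SE 0.47, edgeR adjusted p = 0.374), and 1.32 (edgeR adjusted p = 0.0437) without Keap1-wildtype untreated 6. Leaving that library out removed the highest wildtype Txnip level, so the fit without it cannot serve as a check of an untreated increase. In the BAP arm 2 of the 9 members rose and 1 fell, while 20.3% of all genes rose and 20.0% fell, so that share of members is near the background. With library totals as the only scaling, 4 members rose and 1 fell there, and the calls over all genes went from 3900 higher and 3846 lower to 6051 and 2193. Averaged over both arms 4 of the 9 rose and 1 fell, against 19.6% and 20.8% of all genes. The averaged contrast uses the same tumours as the contrasts of the separate arms. The median fold change of the 9 genes was 0.57 in untreated and 0.26 in BAP tumours, against -0.05 and -0.00 over all genes tested.

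The changes of Prdx5 and Txnip in BAP tumours stood beside a wide difference in cell markers. Of 12 basal keratinocyte markers 11 fell and 0 rose in that contrast, with a median fold change of -4.23, and all 12 differentiated keratinocyte markers fell. All 10 fibroblast markers and all 10 macrophage markers rose, as did 11 of 13 skeletal muscle markers tested. Summed macrophage markers ran from 3991 to 8153 CPM in deleted BAP and from 116 to 332 CPM in wildtype BAP tumours, and summed fibroblast markers from 13510 to 41184 CPM and from 634 to 2330 CPM. In untreated tumours none of these markers was called, and the keratinocyte sum ran from 2412 to 28354 CPM in deleted and from 1548 to 48690 CPM in wildtype tumours. Summed macrophage markers ran there from 741 to 3128 CPM in deleted tumours, with a median of 2426 CPM. In wildtype untreated tumours they ran from 131 to 5827 CPM, with a median of 298 CPM and the highest value in library 6. In bulk tissue, fewer cells of a type and less RNA per cell cannot be told apart.

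The levels of individual genes followed the marker scores to different degrees. When the score of the basal keratinocyte markers was added as a covariate, the fold change in BAP tumours was -0.66 (edgeR adjusted p = 0.9998) for Prdx5, 0.68 (edgeR adjusted p = 0.9998) for Txnip and 1.51 (edgeR adjusted p = 0.737) for Txnrd1. No gene of 19202 was called in the BAP arm under that covariate. The score ran from 2.33 to 5.74 in deleted BAP and from 8.56 to 9.47 in wildtype BAP tumours, so in that arm score and genotype cannot be told apart. In untreated tumours, where the keratinocyte scores overlapped, the increase of Txnrd1 with that covariate was 1.86 (edgeR adjusted p = 0.00904), and averaged over both arms it was 1.68 (edgeR adjusted p = 0.0406). The averaged calls of Srxn1 (1.61, edgeR adjusted p = 0.237), Prdx1 (1.14, edgeR adjusted p = 0.220), Prdx5 (-0.56, edgeR adjusted p = 0.740) and Txnip (0.70, edgeR adjusted p = 0.677) were lost. Over all genes the averaged calls went from 7751 to 39. Without the covariate the fold changes were smaller for Srxn1 (1.06) and Prdx1 (0.80), and larger in size for Prdx5 (-1.25) and Txnip (1.55). With the skeletal muscle score as a covariate those 4 averaged calls were lost too, as were that of Prdx5 in BAP tumours (-1.42, edgeR adjusted p = 0.0817) and that of Txnrd1 in untreated tumours (1.81, edgeR adjusted p = 0.127).

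**Figure D4:**
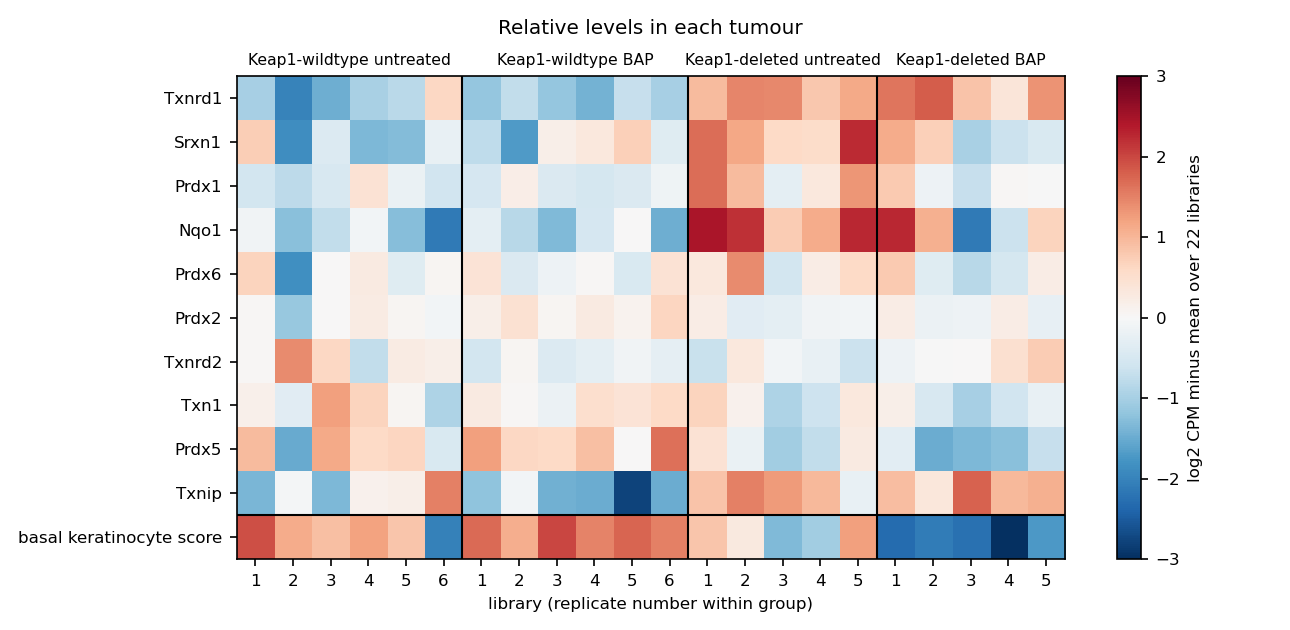
Log2 CPM of each gene in each of the 22 tumours, relative to its mean over all tumours, with Nqo1 and, in the bottom row, the basal keratinocyte score for comparison; red is above and blue below the mean. Keap1-wildtype untreated 6 has a low keratinocyte score with high Txnrd1 and Txnip, like the deleted BAP tumours, and Nqo1 at 19.4 CPM, as in Keap1-deleted BAP 3.

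Across the 22 libraries, with group means removed, Txn1 had a correlation of 0.56 with the basal keratinocyte score, Prdx5 0.40 and Txnip -0.52. With the macrophage score the values were -0.63 for Txn1, -0.20 for Prdx5 and 0.67 for Txnip, and Txnip stood at 0.65 with the T cell score. Txnrd1 stood at -0.22 with the keratinocyte score, but at 0.68 with the macrophage score (0.86 without removing group means). With the neutrophil score it stood at 0.80 (0.39 without removing group means). Of 7 neutrophil markers 2 rose and 2 fell in BAP tumours, and their median score was 3.75 in deleted BAP and 4.21 in wildtype BAP tumours. With group means removed, the values for Srxn1 were 0.30 with the keratinocyte and -0.07 with the macrophage score, and for Prdx1 0.32 and -0.20. These libraries share the make-up of each tumour, and the part of these cells in the levels was not tested beyond the covariates above. No macrophage or neutrophil score was among those covariates.

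Txn1, the thioredoxin itself, was not called in any contrast. Txn1 (ENSMUSG00000028367, chromosome 4, 57943373 to 57956411, minus strand) averaged 639.7 ± 338 CPM (SD, n = 6) in wildtype untreated, 634 ± 122 (SD, n = 6) in wildtype BAP, 529 ± 226 (SD, n = 5) in deleted untreated and 401 ± 122 CPM (SD, n = 5) in deleted BAP tumours. The order of those means was the same as that of Prdx5 apart from the 2 wildtype groups, and neighbouring groups overlapped. Its fold change with Keap1 deletion was -0.27 (SE 0.33, edgeR adjusted p = 0.686) in untreated tumours, -0.66 (SE 0.34, edgeR adjusted p = 0.123) in BAP tumours and -0.47 (SE 0.24, edgeR adjusted p = 0.120) over both arms. It passed over both arms without Keap1-wildtype untreated 6 (-0.54, edgeR adjusted p = 0.0448) and by limma-voom (-0.47, adjusted p = 0.0494). Leaving that library out removed the lowest wildtype Txn1 level, so the fit without it cannot serve as a check. In BAP tumours Txn1 passed by limma-voom (-0.68, adjusted p = 0.0428) and with only the groups compared in the fit (-0.59, edgeR adjusted p = 0.0473). Its sign turned when the basal keratinocyte score was a covariate, to 0.59 (edgeR adjusted p = 0.996) in BAP tumours and 0.24 (edgeR adjusted p = 0.898) over both arms. With group means removed its levels had a correlation of 0.74 with those of Prdx5 over the 22 libraries.

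The transcripts of the inhibitor were also set against those of thioredoxin. The ratio of Txnip to Txn1, both per kilobase, was 0.79% to 25.8% in wildtype untreated tumours with a median of 4.17%, and 0.52% to 4.34% in wildtype BAP tumours with a median of 1.46%. In deleted untreated tumours it was 5.36%, 12.4%, 21.7%, 14.5% and 3.23%, and in deleted BAP tumours 7.94%, 8.32%, 32.3%, 13.9% and 11.6%. All 5 deleted BAP tumours lay above all 6 wildtype BAP tumours, and the untreated groups overlapped, with the 25.8% again from wildtype untreated 6. How often ratios of other genes separate the groups in this way was not counted.

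Prdx5 took a smaller share of the peroxiredoxin transcripts in every deleted tumour than in any wildtype tumour. Of the summed CPM per kb of Prdx1 to Prdx6, Prdx5 held 17.6% to 47.4% in the 12 wildtype tumours, with a median of 36.4%, and 10.4% to 16.9% in the 10 deleted tumours, with a median of 13.9%. These ranges did not overlap, although the gap between the lowest wildtype tumour, untreated 2, and the highest deleted tumour, untreated 5, was small. Prdx1 held 25.1% to 52.9% in wildtype and 39.5% to 67.4% in deleted tumours, with medians of 34.6% and 49.4%, and the ranges overlapped. Prdx4, a peroxiredoxin of the endoplasmic reticulum that is not among the 9, held a mean of 1.46% in wildtype BAP and 10.3% in deleted BAP tumours. Shares of a sum depend on one another, so a larger share of Prdx1 or Prdx4 by itself lowers that of Prdx5.

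**Figure D5:**
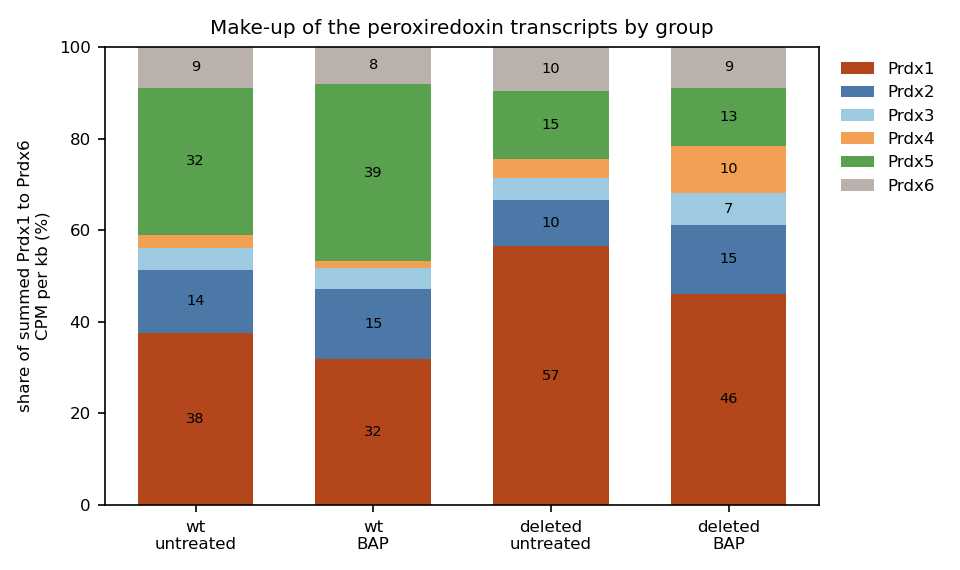
Mean share of each peroxiredoxin gene in the summed CPM per kb of Prdx1 to Prdx6, in percent, for the 4 groups (6, 6, 5 and 5 tumours; wt is Keap1-wildtype). The Prdx5 band is narrower and the Prdx1 band wider in both deleted groups, and the Prdx4 band is widest in the deleted BAP group.

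Prdx2 and Prdx6 were not called in any of the 6 contrasts. Prdx2 (ENSMUSG00000005161, chromosome 8, 84969587 to 84974834, plus strand), a cytosolic peroxiredoxin abundant in red cells, averaged 262 ± 70.6 CPM in untreated and 342 ± 55.6 CPM in BAP wildtype tumours (SD, n = 6 each), and 258 ± 40.6 and 276 ± 44.4 CPM in the deleted ones (SD, n = 5 each). Over both arms its fold change was -0.17 (SE 0.14, 95% confidence interval -0.46 to 0.12), an interval from 1.38-fold lower to 1.09-fold higher. Its sign over both arms was positive, at 0.13, when library totals were the only scaling. Prdx2 shares 350 of 3050 exon bases with genes on the opposite strand, whose counts came to 130.1% of its own. Prdx6 (ENSMUSG00000026701, chromosome 1, 161240112 to 161251219, minus strand), which lacks a resolving cysteine and also has phospholipase activity, averaged 277 ± 123 CPM in untreated and 287 ± 79.0 CPM in BAP wildtype tumours (SD, n = 6 each), and 410 ± 206 and 277 ± 132 CPM in the deleted ones (SD, n = 5 each). Its fold change was 0.57 (SE 0.37) in untreated and -0.05 (SE 0.38) in BAP tumours, and over both arms 0.26 (95% confidence interval -0.29 to 0.81). Keap1-deleted untreated 2 held its highest level, 746 CPM, and wildtype untreated 2 its lowest, 78.2 CPM.

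Benzo[a]pyrene by itself was followed by no called change in these genes. In wildtype tumours edgeR called 0 of 9 members, against 0% of all genes in either direction. Txnip and Txnrd2 had an unadjusted p under 0.05, 2 members against 2622 of all 19202 genes. Txnip stood at -1.39 (SE 0.46, edgeR adjusted p = 0.175), with medians of 26.5 CPM in BAP and 75.1 CPM in untreated tumours and overlapping ranges, and DESeq2 called it (-1.42, adjusted p = 0.0452). Limma-voom called 0 members there. In deleted tumours edgeR again called 0 of 9, against 0.943% of all genes that rose and 5.16% that fell. At an unadjusted p under 0.05 stood 2 members, against 3901 of all 19202 genes. The 2 members were Srxn1 at -1.21 (SE 0.53, edgeR adjusted p = 0.190) and Prdx1 at -0.88 (SE 0.33, edgeR adjusted p = 0.121). Prdx1 passed there by limma-voom (-0.99, adjusted p = 0.0197) and without Keap1-deleted untreated 3 (-1.08, edgeR adjusted p = 0.0351), and DESeq2 called 0 members.

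The effect of Keap1 deletion was then compared between the arms. By edgeR 0 of 9 members were called for that difference, against 2.47% of all genes higher and 4.47% lower. At an unadjusted p under 0.05 stood 4 members, against 5082 of all 19202 genes. Txnrd2 had the smallest adjusted p, at 1.16 (SE 0.42, edgeR adjusted p = 0.0863), and was called by DESeq2 (1.22, adjusted p = 0.0348), while limma-voom called 0 members. Txnip stood at 1.49 (SE 0.67, edgeR adjusted p = 0.161), Prdx5 at -1.26 (SE 0.56, edgeR adjusted p = 0.154) and Srxn1 at -1.60. The value for Txnrd1 was 0.43 (95% confidence interval -0.58 to 1.45). An effect called in 1 arm and not in the other is thus not shown to differ between them for any of the 9 genes by edgeR.

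A list of 28 other thiol redox genes (further thioredoxins, peroxiredoxins, glutaredoxins, methionine sulfoxide reductases, sestrins, glutathione reductase and relatives and regulators of Txnip) was followed beside the 9. All 28 were tested. In untreated tumours edgeR called 0 of them, with 7 at an unadjusted p under 0.05, against 3382 of all 19202 genes. DESeq2 called 1 of the 28 there and limma-voom 4, where they called 944 and 1870 of all genes. In BAP tumours 6 rose and 6 fell, with a median fold change of 0.24 against -0.00 over all genes tested, where 20.3% of all genes rose and 20.0% fell. Over both arms 7 rose and 5 fell, where 19.6% and 20.8% of all genes did. Both counts are thus near the background. With library totals as the only scaling these counts were 10 and 5, and 12 and 4, while over all genes 6051 rose and 2193 fell in BAP tumours and 5423 rose and 2178 fell over both arms, a tilt that the list shared. With the skeletal muscle score as a covariate 1 rose and 3 fell in BAP tumours, and 2 rose and 1 fell over both arms. With the score of the basal keratinocyte markers in the fit, 0 of the 28 were called in any contrast. With Keap1-wildtype untreated 6 and the library labelled Keap1-deleted BAP 2 both left out, 10 rose and 6 fell over both arms. The averaged count also moved with single libraries: 12 rose and 7 fell without Keap1-wildtype untreated 6, and 4 rose and 5 fell without Keap1-deleted untreated 3.

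Among those that rose in BAP tumours, Prdx4 changed by 2.53 (SE 0.48, edgeR adjusted p = 0.00065), from 22.3 ± 8.23 CPM (SD, n = 6) in wildtype to 129 ± 22.2 CPM (SD, n = 5) in deleted tumours. Txndc5, a protein disulfide isomerase of the endoplasmic reticulum, rose by 1.79 (SE 0.45), Msrb3, a methionine sulfoxide reductase, by 1.77 (SE 0.48) and Gsr, glutathione reductase, by 1.38 (SE 0.37). Gsr also averaged 215 ± 42.8 CPM (SD, n = 5) in deleted untreated against 75.2 ± 51.8 CPM (SD, n = 6) in wildtype untreated tumours, and rose by 1.45 (SE 0.26, edgeR adjusted p = 0.00069) over both arms. Those that fell in BAP tumours included Txndc17, a small thioredoxin-like protein, by 2.06 (SE 0.33), Txnrd3, a reductase best known from testis, by 1.84 (SE 0.36), and Glrx, glutaredoxin, by 3.07 (SE 0.69). Sesn2, a sestrin, fell by 0.97 (SE 0.24). Arrdc4, an arrestin-like relative of Txnip, fell by 1.56 (SE 0.42, edgeR adjusted p = 0.00680) in the contrast in which Txnip rose. Of the mitochondrial genes of the list, Prdx3 rose by 0.42 (SE 0.14, edgeR adjusted p = 0.0222) over both arms, and Txn2 was not called (-0.07, SE 0.14).

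BAP in wildtype tumours was followed by 0 calls among the 28 by edgeR, DESeq2 and limma-voom. At an unadjusted p under 0.05 stood 0 of the 28, against 2622 of all 19202 genes. In deleted tumours Glrx fell by 2.47 (SE 0.68, edgeR adjusted p = 0.0367), from 332 ± 241 CPM (SD, n = 5) to 59.8 ± 32.6 CPM (SD, n = 5). That call was lost without Keap1-deleted untreated 1, 2 or 5, without any 1 of the 5 Keap1-deleted BAP libraries, without the filter on low counts, with only the groups compared and with the keratinocyte score as a covariate. The difference between the arms was called for Glrx (-3.22, SE 0.90, edgeR adjusted p = 0.0388) and Txndc17 (-1.64, SE 0.45, edgeR adjusted p = 0.0370), and with the 2 libraries left out for 0 of the 28. It was also called for 0 without Keap1-wildtype untreated 5, Keap1-wildtype BAP 3, 4 or 6, Keap1-deleted untreated 1, 2 or 5, or Keap1-deleted BAP 1, 4 or 5, each left out alone. The same held without the filter and with the keratinocyte or muscle score.

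Each member was finally set against 13338 other genes with a mean of at least 1 CPM, by the correlation of log2 CPM over the 22 libraries, as a description. The genes most like Txnrd1 were Slc11a1, a metal transporter of phagocytes, at 0.94, Fth1, the ferritin heavy chain, at 0.94 and Prl2c2, a proliferin, at 0.94. With group means removed they were Retnlg, which is among the neutrophil markers, Csf3 and Draxin, each at 0.89. Srxn1 was most like Akr1b8, an aldo-keto reductase, at 0.87, Slc48a1, a haem transporter, at 0.83 and Esd, an esterase, at 0.83. Prdx1 was most like Cbr1, a carbonyl reductase, at 0.88, Gstp1, a glutathione transferase, at 0.86 and Mgst1, a microsomal glutathione transferase, at 0.85.

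The genes most like Prdx5 were Rab11a, a GTPase of recycling endosomes, at 0.95, Thap4 at 0.94 and Anxa9, an annexin, at 0.94, and Rab11a and Anxa9 also led with group means removed, at 0.93 each. Txnip was most like Ero1lb, an oxidase of the endoplasmic reticulum, at 0.94, and Vwa5a at 0.94. Txn1 was most like Trp53rkb, Tm7sf2, a sterol reductase, and Mgst2, each at 0.87, and Prdx2 most like Mrpl28, a mitochondrial ribosomal protein, at 0.87. For Prdx6 the closest was Ostf1 at 0.81 and for Txnrd2 the zinc finger gene Zfp263 at 0.85. Among the 9 themselves, with group means removed, Prdx5 had a correlation of 0.77 with Prdx6 and 0.74 with Prdx2, and Srxn1 of -0.62 with Txnip.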

How the data were processed

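RNA from 22 frozen, pulverised tumours was sequenced as paired-end reads on an Illumina platform, per the labels' protocols. The deposited tables give each gene's expected count, found to be a whole number throughout, and an effective length in bases. Which aligner, genome build, annotation and strand setting were used is not given in the sources used here. Groups were taken from genotype and treatment in the labels, and replicates were numbered in deposition order. The 9 genes, the other lists and the tests were chosen with earlier results of these data known.

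Gene IDs were matched to GENCODE M21 (GRCm38): 52073 of 56748 IDs, holding 99.39% of the counts, had a symbol, and IDs without a symbol were tested too. All 22 libraries were fitted in edgeR 4.0.16 (R 4.3.3) after filterByExpr with a minimum count of 10 and TMM scaling, with a term per group, robust quasi-likelihood dispersion and 6 contrasts: Keap1 deletion in each arm and averaged over both, BAP in each genotype, and the difference between arms. The procedure was tested on simulated counts. Log2 CPM used a prior count of 2. Levels were divided by the deposited effective length only to compare genes. Alternatives were DESeq2 1.42.0 size factors and test, library totals as the only scaling, limma-voom (limma 3.58.1) with sample weights, no low-count filter, only the groups compared, 3 covariates (basal keratinocyte score, skeletal muscle score, R suffix of titles) and each library left out. Leaving out Keap1-wildtype untreated 6 and the library labelled Keap1-deleted BAP 2 together was added after seeing the data. Scores are mean log2 CPM of listed markers. No 2 libraries were duplicates (lowest chi-square per degree of freedom 96.5 over 231 pairs). Copies of members were searched by blastn 2.17.0 at 95% identity over 150 bases.

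Named genes were the 9 members, with Keap1, Nfe2l2 and Nqo1 as references; of the 28 other thiol redox genes, up to 4 called per contrast and direction by smallest p, and always Prdx3, Prdx4, Txn2 and Arrdc4; and the 3 genes most correlated with each member, not all of which are printed. A few results are not reported here.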

Additional observations from a re-analysis of the deposited data

Results flagged for a closer look

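In groups of 5 or 6 tumours, the gap between the most extreme library and its nearest neighbour was compared with the range of the group (Dixon's test at 95%) for each of the 9 genes, 36 tests in all, of which 4 stood out. Chance flags about 1 in 20 such groups. Txnrd1 was 205 CPM in Keap1-wildtype untreated 6, with the nearest library of its group at 76.2 CPM. Txnip was 208 CPM in the same library, with the nearest at 82.0 CPM. Txnip was 68.9 CPM in Keap1-wildtype BAP 2, with the nearest at 31.7 CPM. Prdx2 was 126 CPM in Keap1-wildtype untreated 2, below the nearest library at 262 CPM.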

How the results depend on the processing

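No paired analysis was possible because the labels give no replicate numbers, animals or batches that link tumours of different groups. The fold changes of the 9 genes in the 6 contrasts were recomputed under 32 settings, 1710 values in all: 1667 kept their side of the threshold, 19 lost a call, 24 gained one, and none was called in the opposite direction. The cause of a change was not tested unless stated. In untreated tumours, where 1 member was called, 2 were called with library totals as the only scaling, 3 by DESeq2, 4 by limma-voom, 0 with only the groups compared, 0 with the muscle score and 4 with the 2 libraries left out; with 1 library left out the number ran from 0 to 4, and 4 was reached without Keap1-wildtype untreated 6. Over all genes 56 were called there, 944 by DESeq2, 1870 by limma-voom, 124 with the keratinocyte score, 14 with the muscle score, 28 with the title suffix, 36 without the filter, 0 with only the groups compared, and 2530 with the 2 libraries left out. In BAP tumours, where 3 members were called, 5 were called with library totals, Prdx1 (0.78) and Txnrd2 (0.94) being added, and 0 with the keratinocyte score; with 1 library left out the number was 3 throughout. Over all genes 7746 were called there, 3013 with the muscle score and 0 with the keratinocyte score. Over both arms 5 members were called, 1 (Txnrd1) with the keratinocyte score and 1 (Txnrd1) with the muscle score, and from 4 to 6 with 1 library left out. For BAP in wildtype tumours DESeq2 called 1 member and 892 genes where edgeR called 0, and 37 genes were called with the title suffix. For BAP in deleted tumours limma-voom called 1 member where edgeR called 0, with a range of 0 to 1 when 1 library was left out. For the difference between the arms DESeq2 called 1 (Txnrd2), and the range was 0 to 1 when 1 library was left out (Txnrd2 without Keap1-wildtype untreated 4, 1.31). Scaling by library totals moved the median fold change of all genes in BAP tumours from -0.00 to 0.44 and the calls from 3900 higher and 3846 lower to 6051 and 2193, and changed the sign of 8 of 54 fold changes, none of them called. In the BAP contrast of deleted tumours the all-gene calls were 1172, 3205 by limma-voom, 2112 by DESeq2, 398 without the filter, 352 with only the groups compared and 1 with the keratinocyte score. Over both arms 7751 genes were called, 39 with the keratinocyte score and 1421 with the muscle score. For the difference between the arms, 1333 genes were called, 3008 by DESeq2, 3021 with the title suffix, 111 without the filter, 52 with the muscle score and 0 with the keratinocyte score. The lowest count of any member in a library was 156, for Txnrd2.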
